A study of Rattus norvegicus with 8 samples.

Results

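Nephron identity transcription factors are taken here as 7 regulators of nephron formation and tubule identity, Hnf4a, Pax2, Pax8, Lhx1, Gata3, Tfcp2l1 and Emx2. They were found as the probe sets whose single gene symbol in the platform annotation is one of these names. This gave 11 probe sets, 3 for Hnf4a, 2 each for Pax8 and Gata3 and 1 for each of the others, out of 31042 probe sets and 14217 named genes. All 7 genes were measured and no probe set was left out. Levels came from whole left kidneys of female Sprague-Dawley rats aged 29 weeks, 1 array per rat. All had eaten a low-Si feed for 26 weeks. The 4 Si deplete rats also drank low-Si water, for a daily Si intake of 0.17 mg per kg, whereas the 4 Si replete rats drank water with added orthosilicic acid, for 4.1 mg per kg daily. The question of the series was which transcripts of the kidney, transporters above all, differ after chronic Si deprivation.

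The kidney tubule is built from a mesenchyme that turns into epithelium and from a branching duct, the ureteric bud, and its cells keep parts of these programs in adult life. Pax2 and Pax8 are paired box factors that act together in committing early tissue to a kidney fate, and Lhx1 is a LIM homeobox factor needed for the first renal vesicles and their patterning. Emx2 is a homeobox factor required in the ureteric bud. Gata3 guides the nephric duct and is later found in collecting duct and mesangial cells, and also in T lymphocytes. Hnf4a is a nuclear receptor that drives the mature gene program of the proximal tubule, and Tfcp2l1 is a factor of the distal nephron and collecting duct.

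None of the 11 probe sets passed the test between Si deplete and Si replete kidneys (limma's moderated test, Benjamini-Hochberg adjustment over all 31042 probe sets, adjusted p under 0.1), with adjusted p-values of 0.249 to 0.814. Of all probe sets, 0.151% passed, 0.113% higher and 0.0387% lower in Si deplete kidneys, shares at which a call among 11 would be rare. Storey's q-value, a less strict adjustment, was 0.178 at the smallest. Differences, always Si deplete minus Si replete on the log2 scale, were below 0 on 5 probe sets and above 0 on 6. The 5 were those of Hnf4a, Lhx1 and Emx2, and the 6 were those of Pax8, Gata3, Tfcp2l1 and Pax2. The median over the 11 was 0.09, against -0.01 over all probe sets. An unadjusted p under 0.05 was found for 3 of 11, or 27.3%, against 14.9% of all probe sets. By the brightest probe set of each gene it was found for 0 of the 7, against 18.5% of all genes. The 95% intervals of 8 of the 11 included 0, and those of 2 Hnf4a probe sets and 1 Gata3 probe set did not.

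Si deplete replicate 1 stood apart on the first principal component of all probe sets, at 64.0 against -25.9 to 19.2 for the other arrays, and it gave either the lowest or the highest of the 8 levels on 8 of the 11 probe sets. The difference of each of the 11 probe sets is therefore also given without it. Probe sets of a gene are numbered from the brightest, which orders brightness and not transcript number. The kidney's own identity was plain in the arrays, since the loop of Henle marker Umod, which encodes uromodulin, had mean log2 levels of 13.46 and 13.54 in the Si deplete and Si replete groups. The 8 adrenal gland genes measured all had mean levels below 4 on their brightest probe set, as did 5 of 6 urothelium genes. Of all 14217 genes, 4728 did.

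**Figure D1:**
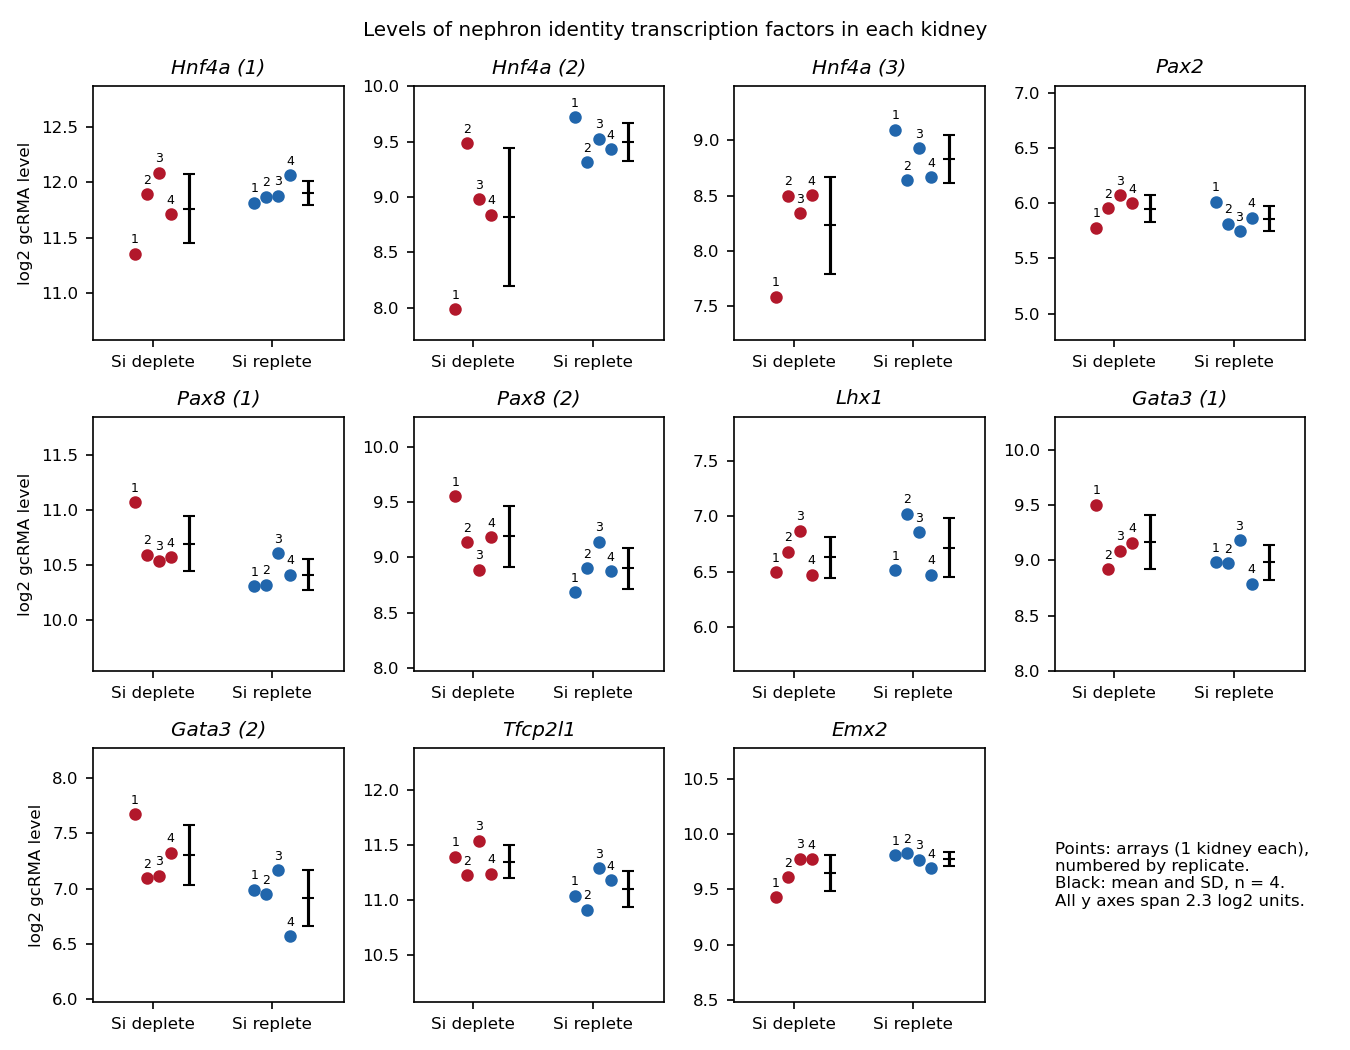
Log2 gcRMA levels (y axis) of the 11 probe sets in each kidney by diet (x axis), where points are arrays numbered by replicate, black bars are the mean and SD of 4, and genes with several probe sets are numbered from the brightest. Only Hnf4a (3) separates the diets, and Si deplete replicate 1 lies lowest on all Hnf4a probe sets and highest on those of Pax8 and Gata3.

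The mean level of Hnf4a was below that of the Si replete group on each of its 3 probe sets, with differences of -0.15 to -0.68, and none passed. In rat assembly GRCr8 of RefSeq the gene lies on chromosome 3, from 172606220 to 172667758, and it is the member for which the promoter table holds more than 1 start site. The 250 bases before each of its 2 start sites are shown because transcripts of this gene begin at separate promoters, so that probe sets of 1 gene need not report on the same transcripts. The first lies at chr3:172605970-172606219 and the second at chr3:172641586-172641835, both on the plus strand. Capitals mark matches, on either strand, to the HNF1 half-site GTTAAT, the GATA core AGATAA and the HNF4 core CAAAGTCC.
Hnf4a upstream promoter: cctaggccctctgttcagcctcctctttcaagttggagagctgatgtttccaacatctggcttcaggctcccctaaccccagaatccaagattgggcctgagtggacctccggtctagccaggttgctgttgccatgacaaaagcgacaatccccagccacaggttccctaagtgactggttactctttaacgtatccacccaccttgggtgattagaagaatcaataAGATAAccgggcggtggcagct
Hnf4a downstream promoter: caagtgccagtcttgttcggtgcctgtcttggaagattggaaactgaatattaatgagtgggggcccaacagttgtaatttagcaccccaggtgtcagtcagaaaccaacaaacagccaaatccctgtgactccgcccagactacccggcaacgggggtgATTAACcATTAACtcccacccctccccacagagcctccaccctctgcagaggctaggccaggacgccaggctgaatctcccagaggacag
The downstream promoter held 2 half-sites of HNF1, a homeobox factor of the liver and tubule, 7 bases apart, and both read ATTAAC on the printed strand. Among all 33469 promoters of the table, 6.45% held at least 1 such half-site in the same window and 0.409% held 2 or more. The upstream promoter held 1 GATA core, found in 10.3% of promoters. The HNF4 core, found in 1.14%, was in neither. The table holds 7 promoters for Hnf4a, Pax2, Pax8, Lhx1, Gata3 and Tfcp2l1, and none but those of Hnf4a held any of these motifs. These matches describe the sequence, and which start site each probe set reports on was not analysed here.

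On the brightest Hnf4a probe set, 1392969_at, the log2 levels of the Si deplete kidneys were 11.35, 11.89, 12.09 and 11.71, in the order of their replicate numbers, here and for all probe sets. Those of the Si replete kidneys were 11.82, 11.87, 11.88 and 12.07. The groups overlapped widely. The difference was -0.15 (standard error 0.15, 95% interval -0.48 to 0.19, adjusted p = 0.677 from limma), and without Si deplete replicate 1 it was -0.01.

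On the next probe set, 1369289_at, the levels were 7.98, 9.49, 8.98 and 8.84 in Si deplete kidneys and 9.72, 9.32, 9.53 and 9.43 in Si replete kidneys. Replicate 2 of the Si deplete group lay within the Si replete range and the other 3 lay below it. The difference of -0.68 (standard error 0.27, 95% interval -1.29 to -0.07), or 0.626-fold, did not pass (adjusted p = 0.297 from limma; exact 2-sided permutation test, p = 0.0857).

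On the dimmest Hnf4a probe set, 1382496_at, the levels were 7.59, 8.50, 8.34 and 8.50 in Si deplete kidneys against 9.10, 8.64, 8.93 and 8.67 in Si replete kidneys. Here every Si deplete kidney lay below every Si replete kidney, the only member probe set of which this was so, and 9.37% of all probe sets had groups that did not overlap. The difference was -0.60 (standard error 0.21, 95% interval -1.07 to -0.13), or 0.66-fold, with the smallest adjusted p among the members (0.249 from limma), and 2210 of all probe sets had a smaller p. The exact 2-sided permutation test gave p = 0.0286, the smallest that 4 against 4 allow. The same exact test gave p = 0.0857 when Si deplete replicate 1, or replicate 1 or 3 of the Si replete group, was left out. The groups stayed apart in these runs too, since leaving out an array cannot make separate groups overlap. The difference without Si deplete replicate 1 was -0.38. Without Si deplete replicate 1, the difference on the middle probe set was -0.40.

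Whether the probe sets of a gene differed from each other was tested on their difference within each array, which cancels the scaling of arrays, over 5 such pairs in Hnf4a, Pax8 and Gata3. The brightest Hnf4a probe set exceeded the next by 2.94 ± 0.41 in the Si deplete group against 2.41 ± 0.24 in the Si replete group (SD, n = 4 each, exact permutation test, p = 0.0857, 0.214 adjusted over the 5 pairs). It exceeded the dimmest by 3.53 ± 0.27 against 3.08 ± 0.30 (SD, n = 4 each, exact permutation test, p = 0.143, adjusted 0.238). A difference among the Hnf4a probe sets was thus not shown beyond the spread between kidneys. The mean of its 3 probe sets gave a Hnf4a value of -0.47 (standard error 0.19, adjusted p = 0.254 from limma, over 14217 genes).

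**Figure D2:**
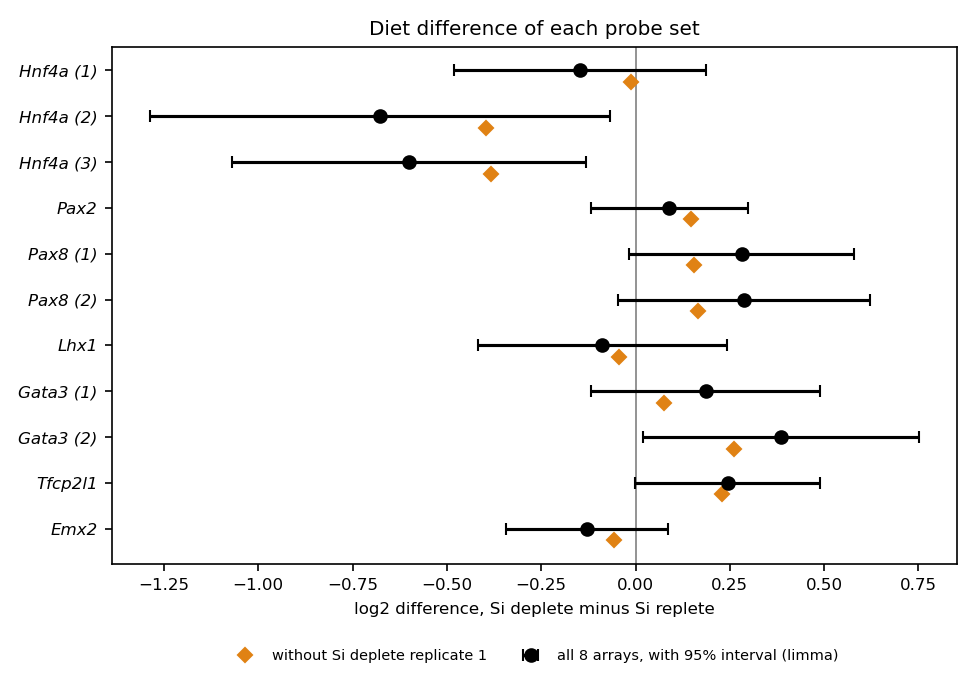
Log2 difference, Si deplete minus Si replete (x axis), of each probe set (y axis), where black points with bars are limma's estimate and 95% interval from all 8 arrays and orange diamonds the estimate without Si deplete replicate 1. The diamonds lie nearer to 0 than the points for all probe sets but that of Pax2.

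Pax8 and Pax2, the paired box factors, had differences above 0. In GRCr8 Pax8 lies on chromosome 3, from 27584000 to 27641094, and Pax2 on chromosome 1, from 253555447 to 253646623. On the brighter Pax8 probe set, 1378692_at, the levels were 11.07, 10.59, 10.54 and 10.57 in Si deplete and 10.31, 10.32, 10.61 and 10.41 in Si replete kidneys. Si deplete replicate 1 stood alone at the top and Si replete replicate 3 lay among the other 3 Si deplete kidneys. The difference was 0.28 (standard error 0.13, 95% interval -0.02 to 0.58, adjusted p = 0.358 from limma), and 0.16 without Si deplete replicate 1.

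The other Pax8 probe set, 1387730_at, gave 9.55, 9.13, 8.89 and 9.18 in Si deplete and 8.69, 8.90, 9.14 and 8.87 in Si replete kidneys, a difference of 0.29 (standard error 0.15, adjusted p = 0.397 from limma), or 0.17 without Si deplete replicate 1. The Pax8 probe sets ran in parallel. Their difference within an array was 1.51 ± 0.11 in the Si deplete group and 1.51 ± 0.09 in the other (SD, n = 4 each, exact permutation test, p = 0.943, and 0.943 adjusted over the 5 pairs).

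Pax2, which early kidney tissue shares with Pax8, had on 1380117_at levels of 5.78, 5.96, 6.07 and 6.00 in Si deplete and 6.01, 5.81, 5.75 and 5.87 in Si replete kidneys. The groups overlapped. Its difference of 0.09 (standard error 0.09, 95% interval -0.12 to 0.30, adjusted p = 0.684 from limma) allows a change of up to 0.30. Without Si deplete replicate 1 it was 0.15, the only member difference that moved away from 0.

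Gata3, the zinc finger factor of the nephric and collecting ducts, also had differences above 0. It lies on chromosome 17, from 73544234 to 73575670. On its brighter probe set, 1382163_at, the levels were 9.50, 8.92, 9.09 and 9.16 in Si deplete and 8.98, 8.97, 9.18 and 8.79 in Si replete kidneys. Si deplete replicate 1 was the highest and Si replete replicate 4 the lowest, with the other kidneys mixed between them. The difference was 0.19 (standard error 0.13, adjusted p = 0.543 from limma), or 0.07 without Si deplete replicate 1.

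On the dimmer Gata3 probe set, 1369525_at, the levels were 7.67, 7.09, 7.12 and 7.32 in Si deplete against 6.99, 6.95, 7.16 and 6.57 in Si replete kidneys. Si replete replicate 3 lay above the lowest Si deplete kidneys, so the groups overlapped. The difference was 0.39 (standard error 0.16, 95% interval 0.02 to 0.75, adjusted p = 0.317 from limma), or 0.26 without Si deplete replicate 1. The gap between the Gata3 probe sets within an array was 1.83 to 1.97 with the Si deplete diet and 1.99 to 2.22 with the Si replete diet. These ranges did not overlap (exact 2-sided permutation test, p = 0.0286, 0.143 adjusted over the 5 pairs), so the difference between the probe sets was past the threshold before adjustment only.

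Beside Gata3, markers of T lymphocytes, which use this factor as well, had higher values in Si deplete kidneys. All 9 of the genes measured had differences above 0, with a median of 0.75 and a range of 0.21 to 1.27, against a median of 0.00013 over all genes, and none passed. The mean log2 level of the list was 3.26 to 4.39 with the Si deplete diet and 3.08 to 3.40 with the Si replete diet, and 6 of the 9 had a mean under 4. Si deplete replicate 4 was the highest on this list, at 0.78 above the mean of the arrays, and Si deplete replicate 1 was next, at 0.57. On both Gata3 probe sets Si deplete replicate 1 was the highest. Next came Si deplete replicate 4 on the dimmer one, at 0.21 above the mean, and Si replete replicate 3 on the brighter one, at 0.11. Mesangial and mural cell genes, 5 of 5 above 0 with none passed, had a median of 0.27 (0.17 when Si deplete replicate 3 was left out, 0.11 when Si replete replicate 4 was) and a mean level of 5.93 to 6.35 against 5.56 to 5.93. The part of either cell type in the Gata3 values was not tested. In whole kidney RNA, fewer cells of a type and less RNA per cell cannot be told apart, for this and every other gene here.

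Tfcp2l1, the factor of distal nephron and collecting duct, lies on chromosome 13, from 32286643 to 32346671. On 1393337_at it had levels of 11.39, 11.23, 11.54 and 11.24 in Si deplete and 11.04, 10.91, 11.29 and 11.18 in Si replete kidneys. Only Si replete replicate 3 reached into the Si deplete range. The difference was 0.24 (standard error 0.11, 95% interval -0.0013 to 0.49, adjusted p = 0.338 from limma). Of the 11 it moved least when Si deplete replicate 1 was left out, to 0.23, and it was between 0.18 and 0.30 with any single array left out.

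The homeobox factors Lhx1 and Emx2 had small differences below 0. Lhx1, on chromosome 10 from 69894288 to 69901076, had on 1377206_at levels of 6.49, 6.68, 6.87 and 6.47 in Si deplete and 6.51, 7.03, 6.86 and 6.47 in Si replete kidneys, which covered nearly the same range. Its difference was -0.09 (standard error 0.15, adjusted p = 0.814 from limma), and it was -0.04 without Si deplete replicate 1 and turned to 0.01 without Si replete replicate 2. The 95% interval of -0.42 to 0.24 bounds it on either side.

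Emx2, on chromosome 1 from 268612663 to 268619671, had on 1377311_at levels of 9.43, 9.61, 9.78 and 9.77 in Si deplete and 9.81, 9.83, 9.77 and 9.69 in Si replete kidneys. The low end was set by Si deplete replicates 1 and 2 while replicates 3 and 4 lay among the Si replete kidneys. The difference was -0.13 (standard error 0.09, adjusted p = 0.552 from limma), or -0.06 without Si deplete replicate 1. This probe set had the narrowest Si replete group of the 11, with an SD of 0.06.

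**Figure D3:**
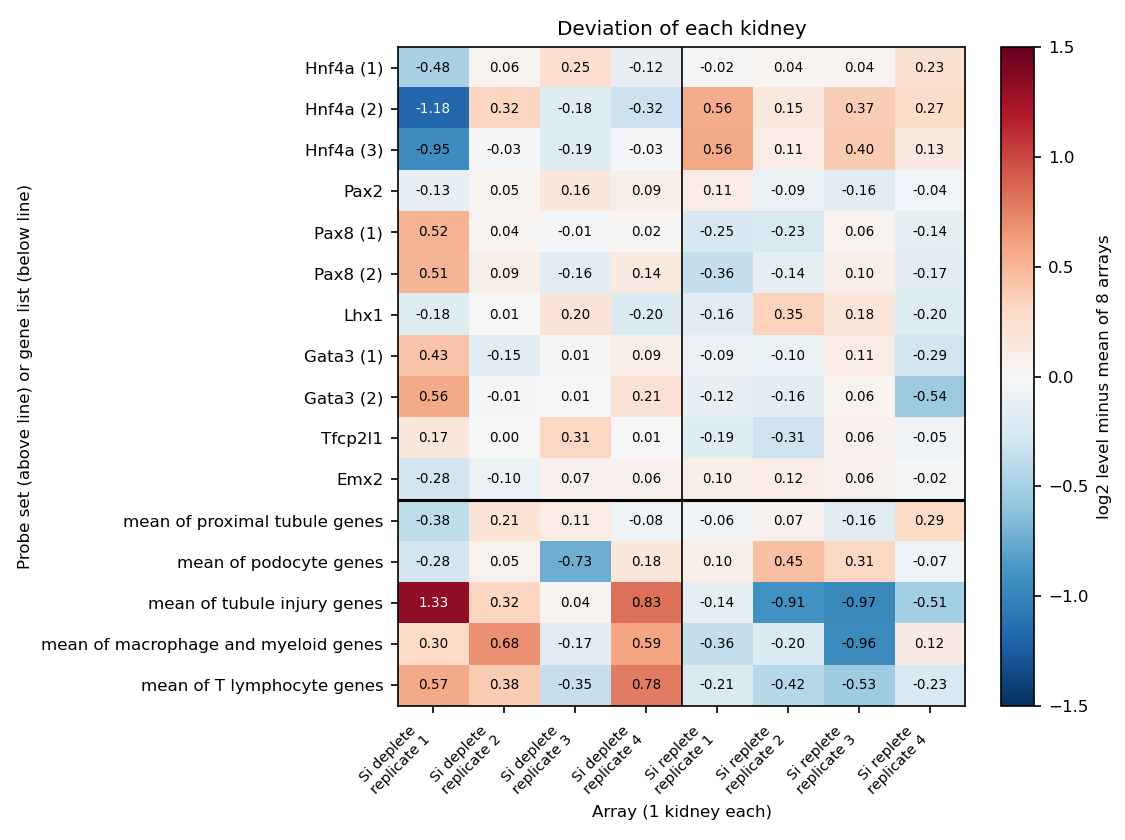
Log2 level of each array (x axis) minus the mean of the 8 arrays for the 11 probe sets and, below the line, for the mean of 5 gene lists (y axis), with the value printed in each cell and the color scale running from -1.5 to 1.5. In Si deplete replicate 1 the tubule injury genes are at 1.33, the highest value of the map, and Hnf4a (2) at -1.18, the lowest.

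The kidneys also differed in injury genes, and Si deplete replicate 1 had the highest of these. The mean of 11 tubule injury genes, among them Havcr1, which encodes kidney injury molecule 1, lay 1.33, 0.32, 0.04 and 0.83 above the mean of the arrays in Si deplete replicates 1 to 4. In Si replete replicates 1 to 4 it was at -0.14, -0.91, -0.97 and -0.51. Of the 11 genes, 10 had differences above 0 and none passed on its brightest probe set (median 0.95). An unadjusted p under 0.05 was found for 9 of the 11, against 18.5% of all genes. The groups of 9 did not overlap, against 11.9% of all genes. Like the other lists, this one was chosen with earlier results of these data known, so these shares describe it and test nothing. Of the 199 probe sets of all companion lists, 1 passed, a further probe set of Cd44, which rose (1.82, standard error 0.27, adjusted p = 0.0864 from limma). That call was lost when Si deplete replicate 2, or replicate 1, 2 or 3 of the Si replete group, was left out, since limma then called no probe set at all. Si replete replicate 1, the highest of its group on this list, was also the highest of all kidneys on the 2 dimmer Hnf4a probe sets. Macrophage and myeloid genes had 8 of 8 differences above 0, with a median of 0.73, none passed and a mean level of 6.85 to 7.71 against 6.06 to 7.14, and fibroblast genes 4 of 5, with a median of 0.17 and none passed. The fibroblast median rested on single arrays, at -0.03 without Si deplete replicate 4 and 0.34 without Si deplete replicate 1. Endothelium genes had a median of -0.01, with either sign when single arrays were left out (-0.12 to 0.13). The part of tubule injury and of these cells in the values of the 7 factors was not tested.

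Other regulators that work beside the 7 were taken as 3 lists of factors and signals, and none of the 40 genes measured from them passed, against 0.204% of all genes by their brightest probe set. An unadjusted p under 0.05 was found for 4 of the 40, against 18.5% of all genes. Of nephron progenitor and segment patterning regulators, 9 of 20 measured were above 0 and 11 below, with a median of -0.05 that took either sign with single arrays left out (-0.10 without Si deplete replicate 3, 0.0033 without Si replete replicate 3). Wt1, which podocytes keep in adult life, had the smallest p, at -0.70 (standard error 0.27, adjusted p = 0.279 from limma), with levels of 7.83 ± 0.49 against 8.53 ± 0.41 (SD, n = 4 each). Podocyte genes lay on the same side, with 4 of 4 below 0, a median of -0.38, and none passed. Si deplete replicate 3 was the lowest on this list, and without it the median was -0.21. Among them Nphs1, which encodes nephrin, was at -0.57 and the phosphatase gene Ptpro at -0.73. The mean level of the list was 7.97 to 8.88 with the Si deplete diet and 8.63 to 9.15 with the Si replete diet, and the part of podocyte number in the Wt1 value was not tested.

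The Notch target Hey1 was at -0.49 (adjusted p = 0.295 from limma) with groups that did not overlap. Hes1, also a Notch target, was at 0.34 (adjusted p = 0.367 from limma). Such separate groups were found for 1 of the 20 genes of this list and 2 of the 14 of the next, against 11.9% of all genes. Of ureteric bud and collecting duct regulators, 5 of 14 measured were above 0 and 9 below, with a median of -0.10, which was -0.03 without Si deplete replicate 3, -0.05 with replicate 4 of that group left out and 0.0061 with Si replete replicate 3 left out. Elf3, an epithelial factor of the Ets family, had the smallest p of the 40, at 0.81 (standard error 0.24, adjusted p = 0.212 from limma), with Si deplete levels of 8.36 ± 0.56 against 7.55 ± 0.15 (SD, n = 4 each) and no overlap. Emx1, the paralog of Emx2, was at -0.47 (standard error 0.16, adjusted p = 0.255), also without overlap. The Ets factor Etv5, a target of Ret signaling in the bud, was at -0.67 (adjusted p = 0.432).

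Of proximal tubule nuclear regulators, 2 of 6 measured were above 0 and 4 below, with a median of -0.05 (-0.12 without Si deplete replicate 3 and -0.02 without Si deplete replicate 1). The bile acid receptor Nr1h4 was at -0.38 (standard error 0.19, adjusted p = 0.393 from limma), and the coactivator Ppargc1a at -0.08 (adjusted p = 0.807). Neither passed, and both had groups that overlapped.

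For the tubule segments in which these factors act, list medians were near 0 and none of the genes passed. By brightest probe sets, single genes differed by more than the factors. The 2 dimmer Hnf4a probe sets, at -0.68 and -0.60, are not part of that comparison. Of 18 proximal tubule genes, several of which depend on Hnf4a, 14 were below 0 and 4 above, with a median of -0.13, which was -0.03 without Si deplete replicate 1. The anion transporter Slc22a6 was at -0.51 (standard error 0.24, adjusted p = 0.356 from limma), the transporter Slc7a13 at -0.33 (standard error 0.12, adjusted p = 0.268) and the gluconeogenic enzyme Fbp1 at -0.29 (adjusted p = 0.423). The glucose transporter Slc2a2 was at 0.64 (adjusted p = 0.391), with a Si replete SD of 0.75.

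Principal cell genes, of the cells in which Gata3 is found, had 8 of 9 below 0 and a median of -0.11 (-0.19 to -0.03 with single arrays left out, without Si deplete replicates 4 and 2 in turn), with the water channel Aqp2 at -0.22 (adjusted p = 0.61 from limma). Intercalated cell genes, of the cells in which Tfcp2l1 acts, had 5 of 9 below 0 and a median of -0.06 (-0.03 without Si replete replicate 1). The proton pump subunit Atp6v1c2 was at -0.44 (standard error 0.14, adjusted p = 0.223 from limma), with no overlap between groups, as for 11.9% of all genes. In the loop of Henle 3 of 6 were below 0, with a median of -0.02 (-0.10 to 0.04 with single arrays left out), and the prostaglandin receptor gene Ptger3 was at 0.59 (standard error 0.22, adjusted p = 0.28). In the distal convoluted and connecting tubule 4 of 5 were below 0, with a median of -0.13 that was -0.25 without Si deplete replicate 4, -0.08 without Si deplete replicate 2 and -0.03 with probe sets averaged per gene. The sodium-calcium exchanger gene Slc8a1 had the smallest p of the segment lists, at -0.61 (standard error 0.16, adjusted p = 0.18 from limma). The calcium-binding protein gene Calb1 was at -0.27 (adjusted p = 0.226 from limma). Its groups did not overlap, whereas those of Slc8a1 did. None of these genes passed with all arrays. Without Si deplete replicate 3, 11 genes of the companion lists passed, all higher in Si deplete kidneys. All 11 came from the injury, T lymphocyte, fibroblast and macrophage lists, and none was a regulator or a tubule segment gene. In that run 302 of all 31042 probe sets passed, against 47 with all arrays.

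**Figure D4:**
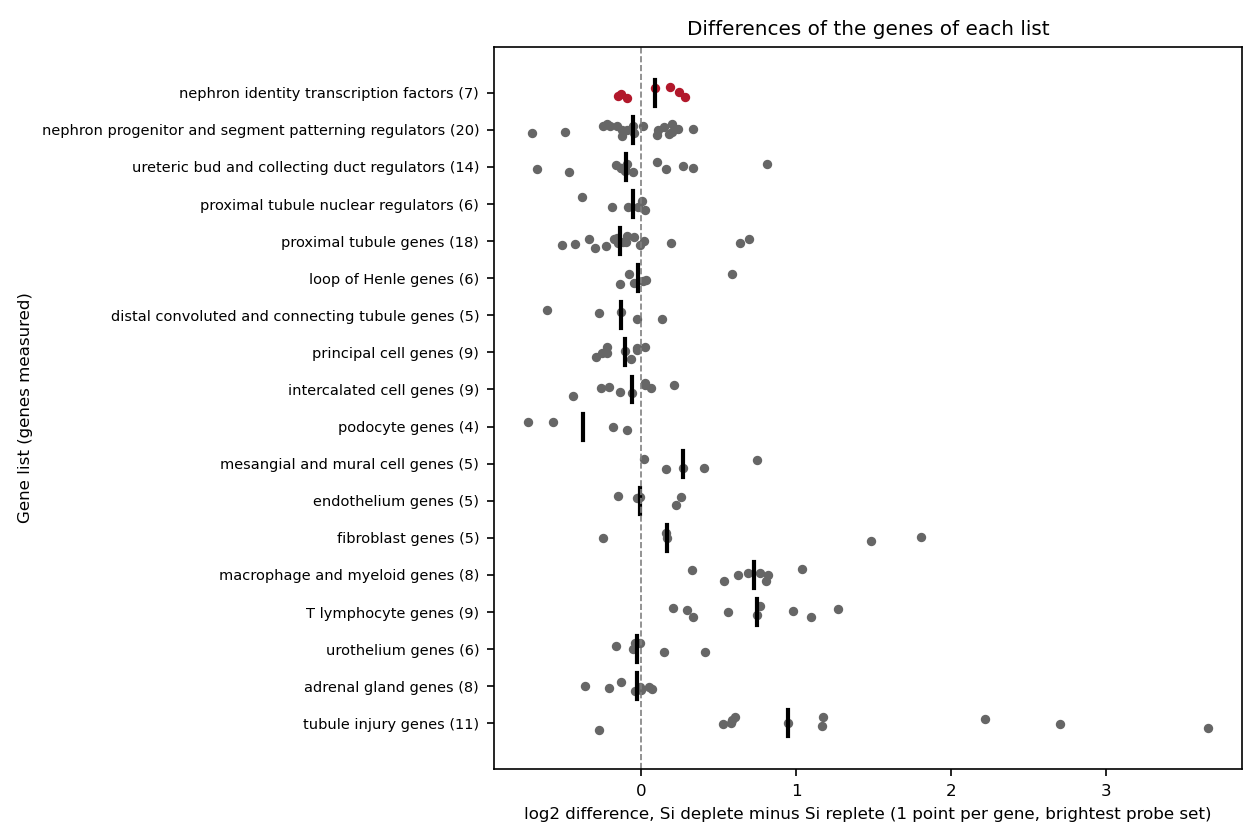
Log2 differences, Si deplete minus Si replete (x axis), of the genes of each list (y axis, genes measured in brackets), where points are genes by their brightest probe set, black bars list medians and the dashed line the median of all genes. The 7 factors, in red, lie between -0.15 and 0.28, and the tubule injury genes reach 3.66.

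Finally, the genes whose levels followed each factor most closely from kidney to kidney were sought among 8514 genes with a mean level of 5 or more, after each group's mean was subtracted, by Pearson's r over the 8 arrays. These values describe the arrays, with 8 points that share libraries and with the highest r picked from many, and carry no test. Si deplete replicate 1 was the lowest or highest array on the brightest probe sets of Hnf4a, Pax8, Gata3 and Emx2, and its weight in r was not tested. With group means kept, r was 0.83 for Pax8 and Psmg1 and 0.36 for Pax2 and Tyw3, but still 0.99 for Hnf4a and Pc. For Hnf4a on its brightest probe set they were Pc, which encodes pyruvate carboxylase (0.99), St6galnac3 (0.99) and the organic anion transporter gene Slc22a8 (0.99). For Pax8 they were Psmg1 (0.99), Rbm17 (0.98) and H2ac25 (0.97), and for Gata3 the fibroblast growth factor receptor gene Fgfr2 (0.98), Riok1 (0.96) and Plscr1 (0.96). Emx2 ran with Ankrd13c (0.99), Pamr1 (0.98) and the amino acid transporter subunit gene Slc3a1 (0.98), and Tfcp2l1 with Cdk19 (0.96), Leo1 (0.96) and Ankrd17 (0.96). Lhx1 ran with Dnajc4 (0.98), Lnx1 (0.97) and Tbc1d22al (0.95), and Pax2 with Pip4k2a (0.96), Tyw3 (0.95) and Paqr5 (0.94). None of these 21 genes passed between the diets.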

How the data were processed

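RNA of 8 left kidneys was measured on Affymetrix GeneChip Rat Genome arrays. The values deposited are log2 levels per probe set, which the authors normalized by gcRMA and summarized with m-estimators (GCRMA 2.36.0 in the submitters' processing notes). Probe intensities were not analysed here. Of 31099 probe sets, 57 controls were left out. The platform annotation gave 1 symbol for 20826, several for 436 and none for 9780. The 7 members were matched to RefSeq by Entrez ID.

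The diets were compared by limma 3.58.1 in R 4.3.3, with lmFit and eBayes on all arrays. The fit was checked on simulated data. Single probe sets were compared by exact permutation over 70 arrangements. Gene lists used each gene's brightest probe set. The members and lists were chosen with earlier results of these data known. Named genes were all members, up to 4 genes of each list with the smallest p, and the 3 genes most alike each member. The number of arrays limits precision. Labels do not say whether kidneys of a group shared a cage. Within a group, any pair of arrays had r of at least 0.9892.

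Results were recomputed with single arrays left out, the replicate number as a block, Storey's q-value (lambda 0.5), a threshold of 0.05, a minimum mean level of 4, array weights, limma's trend or robust option, medians subtracted, quantile normalization, and probe sets averaged per gene.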

Additional observations from a re-analysis of the deposited data

Results flagged for a closer look

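In groups of 4, a single kidney was tested for distance from the other 3 in 168 groups, and 8 stood far from the rest, where chance gives about 1 in 20 groups. On the brighter Pax8 probe set, Si deplete replicate 1 was at 11.07 against 10.54 to 10.59 in the other Si deplete kidneys. For Emx1 the same kidney was at 5.31 against 5.94 to 6.02. The gap between the Gata3 probe sets was 1.97 in Si deplete replicate 3, against 1.83 in each of the others (1.825 to 1.834), and 2.22 in Si replete replicate 4 against 1.99 to 2.02. The sodium channel subunit gene Scnn1a was at 8.47 in Si deplete replicate 4 against 7.76 to 7.87, and Pdgfra at 10.44 in the same kidney against 9.62 to 9.75. Slc4a1, the anion exchanger of intercalated cells, was at 9.65 in Si deplete replicate 3 against 9.36 to 9.41, and the endothelial gene Emcn at 10.80 in Si replete replicate 2 against 10.51 to 10.56.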

How the results depend on the processing

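None of the 11 probe sets passed by limma under any alternative run (3 at an unadjusted p under 0.05 with all arrays, 0 to 5 under the alternatives). Of 165 alternative values of these probe sets, 164 kept direction and side, and Lhx1 turned from -0.09 to 0.014 without Si replete replicate 2 (-0.17 to 0.014 with single arrays left out). The 47 probe sets called over the array became 172 by Storey's q-value, 0 by limma at the stricter threshold of 0.05 (4638 had an unadjusted p under 0.05), 77 with mean levels under 4 left out, 104 with the replicate block and 0 to 302 with single arrays left out. The replicate block called none of the 11. Deviations of same-numbered arrays correlated at 0.088, 0.09, 0.079 and -0.088. Arrays of unlike number were not compared in this way, so these values cannot decide whether same numbers mark pairs. The main comparison did not treat them as pairs. Per the study's methods a rat of each diet was killed on the same day, but the labels do not tie replicate numbers to days, so a pairing by day was not analysed here. The 1 member probe set past an exact p of 0.05 became 0 to 2 with single arrays left out, 0 without replicate 1 of either group and 2 without Si deplete replicate 2. The 0 companion genes called (limma, 33 at an unadjusted p under 0.05) became 1 with probe sets averaged per gene and 0 to 11 with single arrays left out, highest without Si deplete replicate 3. The cause of these shifts was not tested. Of 187 alternative list medians, 10 moved by more than 1 SD between kidneys.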
